A study of Mus musculus with 8 samples.

Results

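Solute carriers are membrane proteins that move sugars, amino acids, ions, metals, vitamins and nucleotides across the plasma membrane and the membranes of organelles. Here they were described in mouse regulatory T cells (Tregs) on day 6 of culture. The members were every gene whose symbol is Slc followed by a family number and whose mean normalized count over the 7 libraries was at least 50. Of 360 such symbols among the 19703 genes of the table, 163 were members, from 40 families, and 197 were not. Of those 197, 74 were listed at 0 in every library, 50 had a mean under 1, 42 had a mean of 1 to under 10 and 31 had a mean of 10 to under 50. The members were thus selected on their own mean level over these libraries, so their being expressed is not a finding. Just inside the limit were Slc6a8 (mean 50.4), Slc52a3 (54.0) and Slc4a11 (59.0), and just outside it were Slc1a4 (49.8), Slc12a8 (49.5) and Slc7a3 (48.7).

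The cells came from FOXP3-GFP reporter mice, whose Tregs carry a green fluorescent marker, and the sample titles call them WT. They were cultured with beads that bind CD3 and CD28 and with the cytokines IL6, IL23 and IL1B. The FcCD70 group (3 libraries, numbered 1 to 3) was given FcCD70 as well, which is soluble CD70; CD70 binds CD27 on T cells and costimulates them. The untreated group (4 libraries, numbered 1 to 4) did not receive it. A further FcCD70 sample, numbered 4, was not analysed here. Groups follow the sample titles, and another label, the treatment field, says the opposite in all 8 samples, so each direction between the groups holds only if the titles are right. No label names separate mice or cultures for the samples of a group, and p-values then measure only the spread between these samples.

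Total reads assigned to genes ran between 18159685 and 23527899 per library. FcCD70 library 2 stood apart from the other 6: it was the lowest of the 7 for 29.4% of the 9845 genes with a mean of at least 50 and the highest for 28.9%. Foxp3, which encodes the lineage factor of Tregs, had 5881, 2788 and 5948 in FcCD70 libraries 1 to 3, against 6585, 5606, 4811 and 5126 in untreated libraries 1 to 4, and the other 6 Treg markers listed were detected too. Of 18 markers of other immune cells, 14 had a row, 2 of them (Ncr1 and Mcpt4) were at 0 in every library, and the 14 summed to 181, 228 and 228 in FcCD70 libraries 1 to 3, against 257, 161, 209 and 217 in untreated libraries 1 to 4, most of it Cd8b1. In such bulk libraries, fewer cells of a type and less RNA per cell cannot be told apart.

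T cells that are activated take up more glucose and amino acids, which they use for glycolysis, protein synthesis and one-carbon metabolism, and they export the lactate that glycolysis makes. Large neutral amino acids enter through a complex of Slc7a5 with the heavy chain Slc3a2, and amino acid supply is sensed by the kinase mTORC1. Inside the cell, the Slc25 family carries ADP, ATP, phosphate and metabolites across the inner mitochondrial membrane, and the Slc35 family carries nucleotide sugars into the endoplasmic reticulum (ER) and the Golgi for glycosylation.

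Levels are given as normalized counts, that is, reads divided by 1 size factor per library, and, where genes are compared with each other, as normalized counts per kilobase of annotated exon. The mean normalized count of the members ran between 50.4 and 13027, with a median of 730, and 64 members had a mean of at least 1000. Per kilobase, the highest was Slc25a5, an ADP/ATP exchanger of mitochondria, at 3916. Next came Slc50a1, a sugar transporter, at 2027, the mitochondrial phosphate carrier Slc25a3 at 1974, the ADP/ATP exchanger Slc25a4 at 1799, and Slc9a3r1 at 1583. Slc9a3r1 has the name but is no carrier: it is a scaffold protein that binds ion exchangers. The choline transporter-like gene Slc44a2 had the highest count and 1501 per kilobase. The median per kilobase was 148 for the members and 209 for all genes with a mean of at least 50. Between the 7 libraries, the coefficient of variation of a member had a median of 12.3%, against 13.4% for all genes with a mean of at least 50, and ran between 3.03% for Slc25a51 and 38.4% for Slc25a27. Both of these are mitochondrial carriers. In 18 members the highest library was more than 2 times the lowest.

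**Figure D1:**
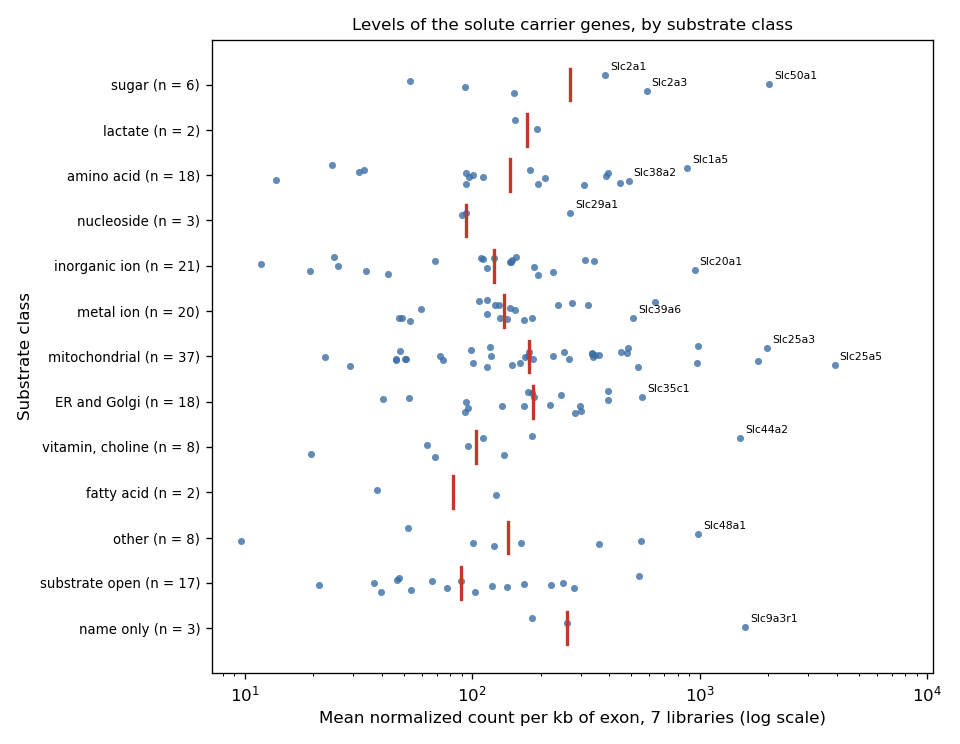
Mean normalized count per kilobase of exon of the 163 members (x axis, log scale), by class of substrate (y axis); each point is 1 gene and the red line the class median. Slc25a5 lies farthest to the right, at 3916.

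No member passed the test for a change with FcCD70. In limma, with the replicate number as a block, 0 of 163 members passed an adjusted p of 0.05 (Benjamini-Hochberg over 11083 genes), where 0% of all genes tested passed; the smallest adjusted p of any gene was 0.999767. At an unadjusted p under 0.05 there was 1 member, Slc25a33, against 1.7% of all genes. On the recovered reads, edgeR called 0 genes (168 at an unadjusted p under 0.05) and DESeq2 called 1 gene, no member (141 at an unadjusted p under 0.05). Each of them had 1 member at an unadjusted p under 0.05. In the authors' deposited table, 0 of 163 members had a p under 0.05, against 1.45% of the genes with a p there. The interval of the fold change held 0 in 162 members, and its median width to each side was 0.36 on the log2 scale. These intervals are not adjusted for the number of genes tested, so that width is not the limit for passing the test. In a typical member, smaller changes could not be told from 0 even without that adjustment. Members with larger fold changes, such as Slc25a33 (0.53) and Slc9a7 (-0.41), did not pass either.

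Fold changes here are FcCD70 minus untreated on the log2(normalized count + 1) scale, which understates changes of low genes. They ran between -0.41 (Slc9a7, a sodium and proton exchanger) and 0.53 (Slc25a33). In 129 members the fold change lay within 0.2 of 0. It was below 0 in 98 members (60.1%) and above 0 in 65, against 50.9% below 0 among all genes tested. The median was -0.032 for the members and -0.0035 for all genes tested. The 3 pairs of same-numbered libraries did not share that direction. Their median members differed by -0.0071 in pair 1, -0.15 in pair 2 and 0.042 in pair 3, with 84, 110 and 66 members below 0. Pair 2 holds FcCD70 library 2. Without that library 76 members (46.6%) were below 0 and 87 above, the median turned to 0.019, and the sign turned in 60 members, Slc9a7 among them (0.15). The sign turned in 30 members without FcCD70 library 1 and in 14 without FcCD70 library 3. Leaving out the untreated library of the same number gives the same fold changes, since each rests on the pairs. Beside a member's interval, the fold change without a FcCD70 library is added where it has the other sign or differs by over 1.5 times. In all 3 pairs, 20 members (12.3%) were lower with FcCD70, against 9.02% of the genes with a mean of at least 50, and 7 (4.29%) were higher, against 8.75%.

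**Figure D2:**
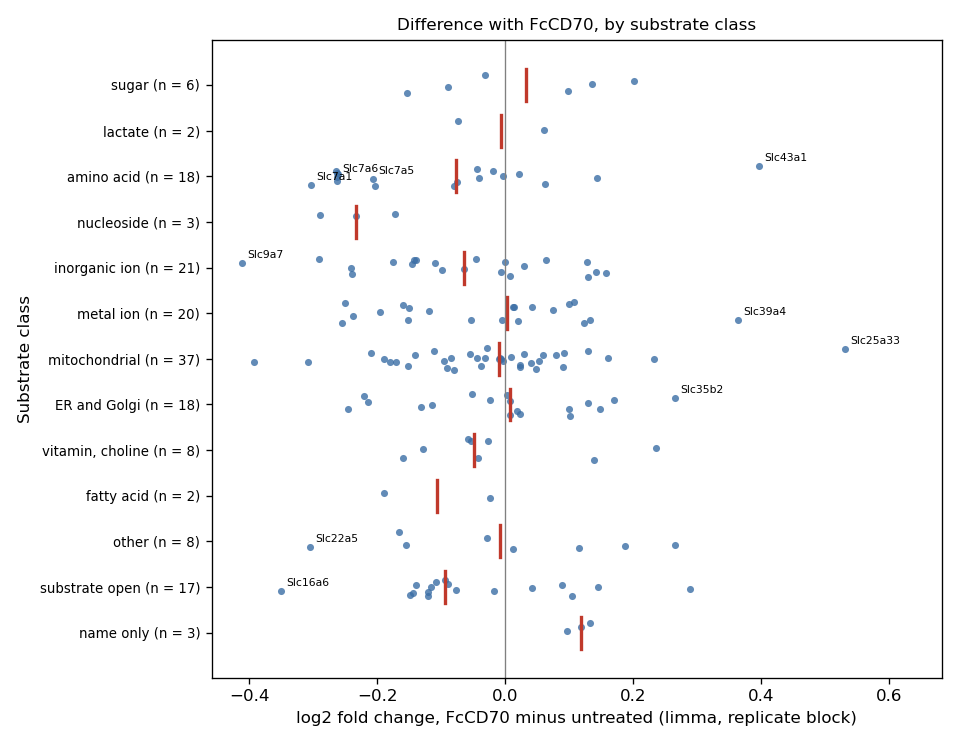
Log2 fold change of each member, FcCD70 minus untreated, from limma with the replicate block (x axis), by class of substrate (y axis); each point is 1 gene and the red line the class median. Most points lie within 0.2 of 0, and Slc25a33 lies farthest to the right, at 0.53.

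Slc25a33 (ENSMUSG00000028982, chr4:149744036-149774277, minus strand, GRCm38), a mitochondrial carrier of pyrimidine nucleotides, had 233, 348 and 226 in FcCD70 libraries 1 to 3, against 157, 193, 199 and 229.8 in untreated libraries 1 to 4 (log2 fold change 0.53, 95% interval 0.064 to 1.0, unadjusted p = 0.030, adjusted p = 0.999767 in limma). Its FcCD70 library 2 was the highest of the 7, and the groups overlapped: FcCD70 library 3 lay below untreated library 4. An annotated gene on the other strand, Gm13068, overlaps an exon of Slc25a33, and whether the counting used strand is not given in the sources used here. The groups did not overlap in 4 members. In 2 of them, Slc7a5 and Slc30a6, every FcCD70 library was below every untreated one, as in 1.04% of the genes with a mean of at least 50. In the other 2, Slc35b2 and Slc25a3, every FcCD70 library was above, as in 1.19%. Slc7a5 (ENSMUSG00000040010, chr8:121881150-121907694, minus strand), the light chain of the large neutral amino acid transporter, had 728, 718 and 702 in FcCD70 libraries 1 to 3, against 787, 968, 740.0 and 769 in untreated libraries 1 to 4 (log2 fold change -0.21, 95% interval -0.53 to 0.12, and -0.094 without FcCD70 library 2). Slc30a6, a zinc transporter, had 309, 330.2 and 333 in FcCD70 libraries 1 to 3, against 401, 387, 359 and 376 in untreated libraries 1 to 4 (log2 fold change -0.24, 95% interval -0.61 to 0.14). For Slc7a5 the nearest libraries of the groups were FcCD70 1 and untreated 3. Slc35b2, which brings the sulfate donor PAPS into the Golgi, had 837, 859 and 799 in FcCD70 libraries 1 to 3, against 669, 662, 746 and 790.3 in untreated libraries 1 to 4 (log2 fold change 0.27, 95% interval -0.049 to 0.58). Slc25a3 had 10681, 12979 and 10959 in FcCD70 libraries 1 to 3, against 10402, 10532, 10589 and 10538 in untreated libraries 1 to 4 (log2 fold change 0.13, 95% interval -0.17 to 0.43, and 0.044 without FcCD70 library 2). In Slc25a3 the untreated libraries lay close together and FcCD70 library 2 was the highest.

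**Figure D3:**
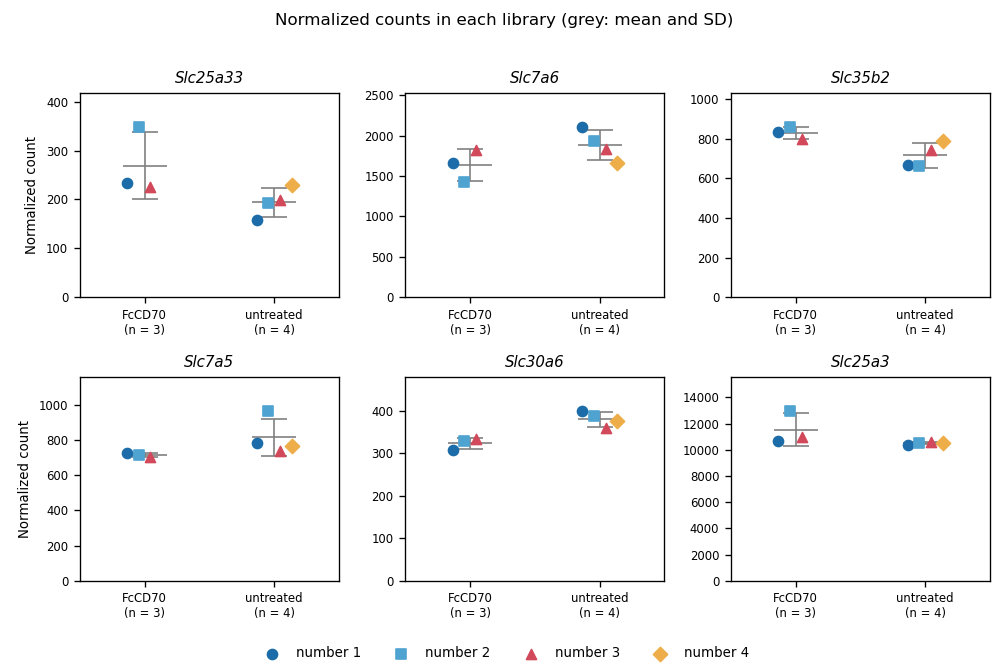
Normalized count (y axis, from 0) of 6 members in each library by group (x axis), with the replicate number as symbol and, in grey, the mean and SD. The groups overlap in Slc25a33 and Slc7a6 and do not in Slc35b2, Slc7a5, Slc30a6 and Slc25a3; none of the 6 passed the test.

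With all 7 libraries no member passed the test for replicate number either. In the same limma fit, an F test of the 3 number terms called 0 members, where 0.135% of all genes passed; the smallest adjusted p of a member was 0.248. At an unadjusted p under 0.05 there were 7 members of 163, against 8.02% of all genes, and edgeR called 0 genes, with 854 at an unadjusted p under 0.05. This depended on the libraries numbered 2. Without FcCD70 library 2 the F test called 21 members (12.9%), against 16.5% of all genes, and without untreated library 2 it called 52 (31.9%), against 38.6% of all genes. These 2 fits shared 17 called members. Each has 1 residual degree of freedom, so its p-values rest on the spread shared over all genes. In each, number 2 rests on 1 library: untreated library 2 in the first fit and FcCD70 library 2 in the second. A difference of number 2 and a deviation of that library alone cannot be told apart there. In both fits the share among members was below that among all genes.

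Among the members with the smallest p in that F test were several that split the libraries numbered 3 and 4 from those numbered 1 and 2. This split was seen in these data and is given with no test. In 18 members all libraries numbered 3 and 4 were below all numbered 1 and 2, against 11.6% of the genes with a mean of at least 50, and in 11 they were all above, against 11.5%. These are 11.04% and 6.75% of the members. Slc2a6 (ENSMUSG00000036067, chr2:27021363-27027998, minus strand), a glucose transporter-family gene of lysosomal membranes, had 388, 341 and 349 in the libraries numbered 3 and 4 (FcCD70 3, untreated 3, untreated 4), against 622, 426, 752 and 553 in those numbered 1 and 2 (FcCD70 1, FcCD70 2, untreated 1, untreated 2). Slc25a27, a mitochondrial uncoupling protein family gene, had 265, 269 and 287 in the libraries numbered 3 and 4, against 666, 331, 516 and 455 in those numbered 1 and 2. Slc38a9 (ENSMUSG00000047789, chr13:112660751-112738749, plus strand), the lysosomal arginine sensor that signals to mTORC1, had 1551, 1428 and 1349.9 in the libraries numbered 3 and 4, against 2417, 1811, 2254 and 2299 in those numbered 1 and 2. All 3 were lower in numbers 3 and 4 in both groups, with log2 differences of -0.68, -0.80 and -0.60. Slc44a1, a choline transporter, had 1082, 1109 and 963 in the libraries numbered 3 and 4, against 1409.6, 1403, 1596 and 1365 in those numbered 1 and 2. The sodium, potassium and chloride cotransporter Slc12a2 was also lower in numbers 3 and 4, with 1084, 1019 and 899 in the libraries numbered 3 and 4, against 1595, 1208, 1253 and 1433 in those numbered 1 and 2.

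Of the 10 genes with the smallest p, 2 ran the other way without overlap. Slc17a9, which loads ATP into vesicles, had 2154, 2228 and 1988 in the libraries numbered 3 and 4, against 1347, 1457, 1679 and 1563 in those numbered 1 and 2. Slc2a1, the main glucose transporter of activated T cells, had 1532, 1479 and 1484 in the libraries numbered 3 and 4, against 1029.5, 1371, 1161 and 1347 in those numbered 1 and 2. The GDP-fucose transporter of the Golgi, Slc35c1, which supplies fucose for selectin ligands, also lay higher in numbers 3 and 4, with 2135, 2099 and 2017 in the libraries numbered 3 and 4, against 1714, 1507, 1652 and 1675 in those numbered 1 and 2. Another 3 of the 10 did not follow that split. The peptide transporter Slc15a2 was highest in the libraries numbered 2 of each group, with 1075, 1602 and 1243 in FcCD70 libraries 1 to 3, against 949, 2066, 1137 and 1216 in untreated libraries 1 to 4. Slc37a2, a sugar phosphate exchanger of the ER, had 231, 315 and 201 in FcCD70 libraries 1 to 3, against 259.7, 416, 212 and 245 in untreated libraries 1 to 4, highest in untreated library 2. Slc43a1, an amino acid transporter, had 136, 135 and 144 in FcCD70 libraries 1 to 3, against 59.4, 145, 132 and 212 in untreated libraries 1 to 4 and was lowest in untreated library 1. Exons of Slc2a1, Slc38a9, Slc44a1 and Slc37a2 are overlapped by an annotated gene on the other strand.

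**Figure D4:**
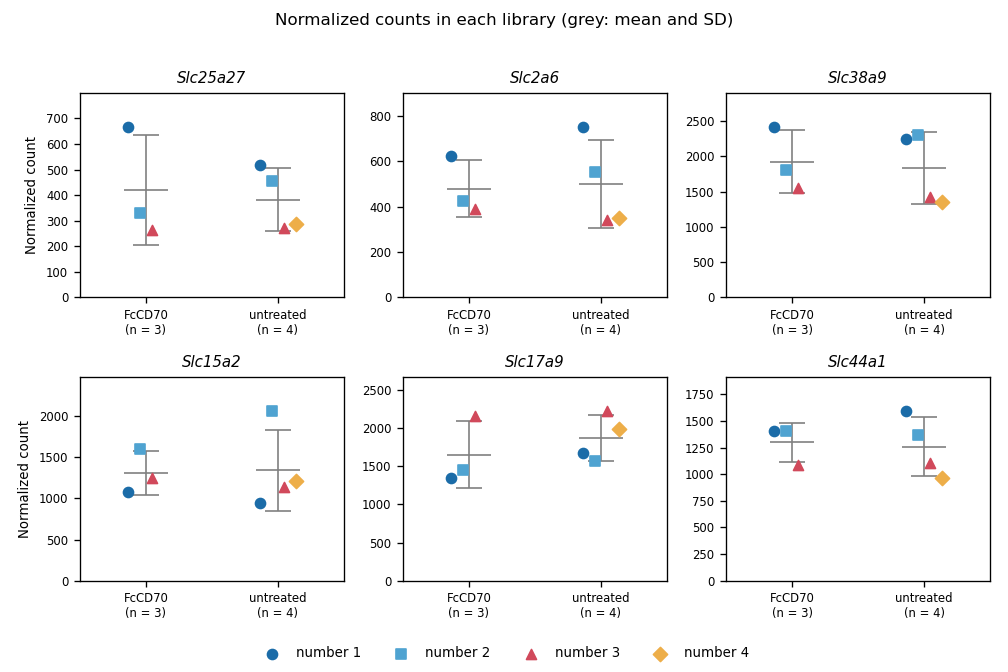
Normalized count (y axis, from 0) of 6 members with small p in the number test, in each library by group (x axis), with the replicate number as symbol and, in grey, the mean and SD of the group. In both groups Slc2a6, Slc25a27, Slc38a9 and Slc44a1 are lower in numbers 3 and 4 than in numbers 1 and 2, Slc17a9 is higher, and Slc15a2 is highest in number 2.

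The sequence upstream of 4 of these genes is given, as examples chosen after their values were seen. Sequences of Slc25a27, Slc17a9, Slc11a2, Slc7a5 and Slc2a3 were looked for too but had no match by symbol. In each of the 4, every library numbered 3 and 4 lay outside those numbered 1 and 2: 2 were higher (Slc2a1 and Slc35c1) and 2 lower (Slc2a6 and Slc38a9). Each sequence is the 250 bases before the transcript start in the RefSeq table for GRCm38.p6, written 5′ to 3′ on the strand of the gene. Capitals mark matches, on either strand, to CACGTG (an E-box), ACGTG (the core of a hypoxia response element, which also lies inside CACGTG), TGATGNAA (an amino acid response element), and TGCGCNC or TGCACNC (metal response elements). Their positions are chr4:119108495-119108744, plus strand, for Slc2a1, chr2:92460519-92460768, minus strand, for Slc35c1, chr2:27027999-27028248, minus strand, for Slc2a6, and chr13:112660516-112660765, plus strand, for Slc38a9.
Slc2a1: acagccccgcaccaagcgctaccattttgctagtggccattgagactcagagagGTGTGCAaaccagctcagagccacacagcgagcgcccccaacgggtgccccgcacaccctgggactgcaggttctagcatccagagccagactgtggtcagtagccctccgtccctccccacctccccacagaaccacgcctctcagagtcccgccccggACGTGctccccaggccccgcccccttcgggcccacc
Slc35c1: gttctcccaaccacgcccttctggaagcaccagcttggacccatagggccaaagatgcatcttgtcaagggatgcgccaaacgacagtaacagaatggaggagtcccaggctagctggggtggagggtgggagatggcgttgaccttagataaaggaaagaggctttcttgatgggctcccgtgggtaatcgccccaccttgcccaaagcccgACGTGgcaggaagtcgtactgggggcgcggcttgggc
Slc2a6: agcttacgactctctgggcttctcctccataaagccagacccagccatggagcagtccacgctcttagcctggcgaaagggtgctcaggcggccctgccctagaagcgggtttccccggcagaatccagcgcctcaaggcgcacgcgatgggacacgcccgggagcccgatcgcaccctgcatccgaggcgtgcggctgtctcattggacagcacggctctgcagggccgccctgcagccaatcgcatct
Slc38a9: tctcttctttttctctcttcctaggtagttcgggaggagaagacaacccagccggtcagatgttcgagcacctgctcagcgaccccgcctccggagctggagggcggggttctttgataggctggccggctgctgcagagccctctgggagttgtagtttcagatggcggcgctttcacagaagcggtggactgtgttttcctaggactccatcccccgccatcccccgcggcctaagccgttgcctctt
Slc2a1 holds TGCACNC from 196 bases and ACGTG from 36 bases before the start, and Slc35c1 holds ACGTG from 37 bases before it. In the windows of Slc2a6 and Slc38a9 these letters were not found. Over the windows of 300 bases in the table, from 250 before to 50 after the start, 121 of the 163 members matched by symbol. ACGTG was in 28.9% of these members and 19.7% of all promoters in the table, CACGTG in 14.05% and 7.24%, TGCGCNC in 25.6% and 15.5%, TGCACNC in 17.4% and 12.4%, and TGATGNAA in 1.65% and 4.06%. The members' windows also had more G and C, with a median of 63.0% against 52.7%. The 27025 promoters in the table were not filtered by expression and include those of the members. The members were chosen by a mean of at least 50, so the 2 sets are not alike in level. The part of expression or of G and C in these shares was not tested.

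FcCD70 library 2 was the lowest of the 7 in 59 members (36.2%), against 29.4% of the genes with a mean of at least 50, and the highest in 30 (18.4%), against 28.9%. Its median log2 difference from the other 6 was -0.17 for inorganic ion, amino acid, and vitamin and choline carriers. That median was -0.63 for nucleoside, -0.23 for fatty acid and -0.19 for other carriers, and -0.24 where the substrate is not settled. For sugar and metal carriers it was -0.094 and -0.087. Above 0 were ER and Golgi (0.094), mitochondrial (0.029) and lactate carriers (0.017) and the members that are no carriers (0.30). FcCD70 library 2 was the lowest in 10 of 21 inorganic ion carriers and the highest in 0, and the lowest in 9 of 18 amino acid carriers and the highest in 2. In the 17 members of unsettled substrate it was the lowest in 10 and the highest in 0. Among the 37 mitochondrial carriers it was the lowest in 11 and the highest in 12, and among the 18 carriers of the ER and Golgi the lowest in 4 and the highest in 7. Slc6a6, the taurine transporter, had 1988 in FcCD70 library 2, against 3240.4 to 3932 in the other 6. Slc12a7, a potassium and chloride cotransporter, had 1787 in FcCD70 library 2, against 2884 to 3306 in the other 6. Slc9a7 had 117 in FcCD70 library 2, against 218 to 340.1 in the other 6. Slc30a7, a zinc transporter of the Golgi, had 1068 in FcCD70 library 2, against 1716 to 1939 in the other 6. On the high side, Slc33a1, which brings acetyl-CoA into the ER, had 1467 in FcCD70 library 2, against 879 to 1104 in the other 6. Slc35b3, a second PAPS transporter, had 2127 in FcCD70 library 2, against 1389.7 to 1745 in the other 6. Transcript length moved with this: the median log2 difference of FcCD70 library 2 from the median of the other 6 was -0.18 over the 81 members with longer exon sequence and -0.024 over the 82 shorter ones, against -0.17 and 0.16 over the genes with a mean of at least 50 split at the same length. The part of transcript length in these differences was not tested. The summed level of 8 ribosomal protein genes was 209221, 347854 and 295395 in FcCD70 libraries 1 to 3, against 238036, 231227, 322725 and 335306 in untreated libraries 1 to 4.

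**Figure D5:**
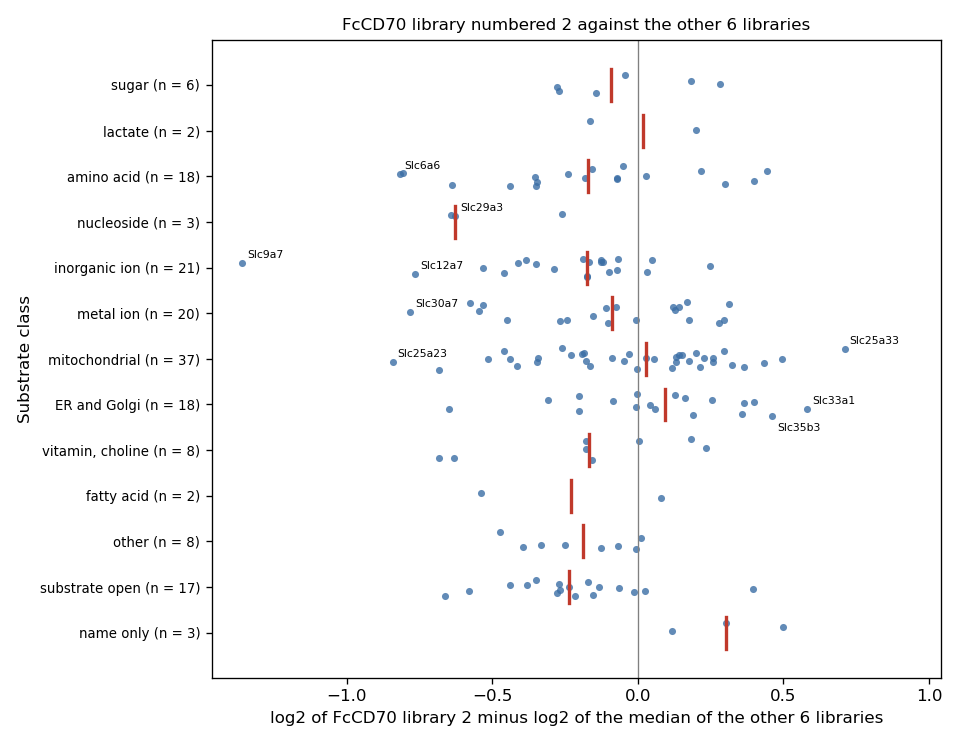
Log2 difference of FcCD70 library 2 from the median of the other 6 libraries for each member (x axis), by class of substrate (y axis); each point is 1 gene and the red line the class median. The medians of the inorganic ion and amino acid carriers lie at -0.17, that of the nucleoside carriers is the lowest at -0.63, and Slc9a7 lies farthest to the left, at -1.36.

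Of the sugar carriers, 6 were members. Their fold changes with FcCD70 were above 0 in 3 and below 0 in 3. Without FcCD70 library 2 these counts were the same, but the sign turned in 2 genes. Slc2a8 went from 0.20 to -0.016 and Slc2a9 from -0.089 to 0.0066. Without FcCD70 library 1, 4 of the 6 sugar carriers were above 0 and 2 below. Slc2a3, a high-affinity glucose transporter, had the highest count among them, with 4870.0, 3573 and 4688 in FcCD70 libraries 1 to 3, against 4272, 3693, 4214 and 4354 in untreated libraries 1 to 4 (log2 fold change 0.098, 95% interval -0.18 to 0.37, and 0.053 without FcCD70 library 1 and 0.17 without FcCD70 library 2). Slc2a1 had 1029.5, 1371 and 1532 in FcCD70 libraries 1 to 3, against 1161, 1347, 1479 and 1484 in untreated libraries 1 to 4 (log2 fold change -0.032, 95% interval -0.32 to 0.25, and 0.038 without FcCD70 library 1, -0.061 without FcCD70 library 2 and -0.074 without FcCD70 library 3). Per kilobase, Slc50a1 was at 2027, Slc2a3 at 585 and Slc2a1 at 383. For Slc50a1 the values were 2940.4, 3506 and 2874 in FcCD70 libraries 1 to 3, against 2733, 2828, 2890.0 and 3034 in untreated libraries 1 to 4. The groups overlapped in each of these 3.

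The class of lactate carriers held 2 members. Of the same family number, Slc16a6 and Slc16a13 were placed among the members of unsettled substrate and Slc16a10 among the amino acid carriers. Slc16a1, which carries lactate in either direction, had 809, 940.2 and 829.8 in FcCD70 libraries 1 to 3, against 752, 743, 996 and 887 in untreated libraries 1 to 4 (log2 fold change 0.061, 95% interval -0.29 to 0.41, and 0.038 without FcCD70 library 1, -0.079 without FcCD70 library 2 and 0.22 without FcCD70 library 3). Slc16a3, the main lactate exporter of glycolytic cells, had 754, 753 and 874 in FcCD70 libraries 1 to 3, against 813, 838, 849.7 and 884 in untreated libraries 1 to 4 (log2 fold change -0.074, 95% interval -0.38 to 0.23, and -0.034 without FcCD70 library 2 and -0.13 without FcCD70 library 3). All libraries numbered 3 and 4 were above those numbered 1 and 2 for Slc16a3.

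The amino acid carriers were 18 members, with fold changes below 0 in 14 and above 0 in 4, a median of -0.077, and none called. Without FcCD70 library 2, 9 were below 0 and 9 above. Their summed level was 29818, 24589 and 30208 in FcCD70 libraries 1 to 3, against 29148, 32318, 29169 and 28443 in untreated libraries 1 to 4, so FcCD70 library 2 was the lowest and the rest lay within 28443 to 32318. The sodium-coupled neutral amino acid transporters Slc38a1 and Slc38a2 led by count. Slc38a1 had 5605, 4131 and 5900.5 in FcCD70 libraries 1 to 3, against 5121, 5573, 5648 and 5602 in untreated libraries 1 to 4. Slc38a2 had 4344, 3518 and 4766 in FcCD70 libraries 1 to 3, against 3874, 4768, 4607 and 4236 in untreated libraries 1 to 4. FcCD70 library 2 was the lowest in both, and their fold changes (-0.079 and -0.075) turned to 0.097 for Slc38a1 and 0.11 for Slc38a2 without it. Without FcCD70 library 1 they were -0.18 for Slc38a1 and -0.19 for Slc38a2, and without FcCD70 library 3 -0.15 for Slc38a1 and -0.14 for Slc38a2. Slc1a5, which takes up glutamine, was the highest per kilobase at 878, and had 3577, 3297 and 3782 in FcCD70 libraries 1 to 3, against 3541, 3481, 3963 and 3999 in untreated libraries 1 to 4 (log2 fold change -0.044, 95% interval -0.31 to 0.22, and -0.073 without FcCD70 library 1 and -0.026 without FcCD70 library 2).

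The chains of the large neutral amino acid transporters had fold changes of both signs, none past the test. Slc3a2, the heavy chain, had 1483, 1867 and 1541 in FcCD70 libraries 1 to 3, against 1495.4, 1623, 1544 and 1493 in untreated libraries 1 to 4 (log2 fold change 0.063, 95% interval -0.22 to 0.34, and 0.1 without FcCD70 library 1, -0.0072 without FcCD70 library 2 and 0.095 without FcCD70 library 3), while the light chains Slc7a5 and Slc7a6 had fold changes of -0.21 and -0.26, and of -0.094 and -0.18 without FcCD70 library 2. Slc7a6, which exchanges cationic for neutral amino acids, had 1656, 1429 and 1818 in FcCD70 libraries 1 to 3, against 2106, 1928, 1829.6 and 1659.8 in untreated libraries 1 to 4; it averaged 1634 ± 196 with FcCD70 (SD, n = 3) and 1881 ± 187 untreated (SD, n = 4), with an unadjusted p of 0.0794 and an adjusted p of 0.999767 in limma. Slc7a1, the arginine transporter, had 1134, 722 and 1080.3 in FcCD70 libraries 1 to 3, against 1159.8, 1287, 1116 and 1045 in untreated libraries 1 to 4 (log2 fold change -0.30, 95% interval -0.70 to 0.091, and -0.039 without FcCD70 library 2). Both Slc7a6 and Slc7a1 were lower with FcCD70 in 3 of 3 pairs, with the lowest value in FcCD70 library 2. Slc43a2, another transporter of large neutral amino acids, had 2130.5, 1577 and 1795 in FcCD70 libraries 1 to 3, against 2279, 2316, 1747 and 1892 in untreated libraries 1 to 4 (log2 fold change -0.20, 95% interval -0.53 to 0.12, and -0.029 without FcCD70 library 2 and -0.33 without FcCD70 library 3). Slc7a11, the cystine and glutamate exchanger, was not a member, with a mean of 17.4.

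All 3 nucleoside and nucleobase carriers had fold changes below 0, and FcCD70 library 2 was the lowest in 2 of them. Without that library all 3 were still below 0, with a median of -0.070 against -0.23. Slc29a1, which carries adenosine and other nucleosides, had 908, 947 and 1131 in FcCD70 libraries 1 to 3, against 978, 1138, 1249.8 and 1232 in untreated libraries 1 to 4 (log2 fold change -0.17, 95% interval -0.46 to 0.12). Slc29a3, its relative in lysosomes, had 482, 358 and 623 in FcCD70 libraries 1 to 3, against 553, 569, 555 and 547 in untreated libraries 1 to 4 (log2 fold change -0.23, 95% interval -0.65 to 0.18, and -0.017 without FcCD70 library 2 and -0.43 without FcCD70 library 3). The purine nucleobase transporter Slc43a3 had 442, 276 and 422 in FcCD70 libraries 1 to 3, against 526, 459, 390.4 and 420.4 in untreated libraries 1 to 4 (log2 fold change -0.29, 95% interval -0.72 to 0.14, and -0.07 without FcCD70 library 2 and -0.49 without FcCD70 library 3). The low value of FcCD70 library 2 stands out in Slc29a3 and Slc43a3. Gm17080 overlaps Slc29a1 on the other strand.

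Among 21 carriers of inorganic ions, fold changes were below 0 in 14 and above 0 in 7, with a median of -0.064. Without FcCD70 library 2, 7 were below 0 and 14 above. Slc20a1, a sodium and phosphate cotransporter, was the highest, with 6327, 4970.4 and 4984 in FcCD70 libraries 1 to 3, against 5668, 6032, 4643 and 4488 in untreated libraries 1 to 4, and 950.1 per kilobase. Its fold change of -0.0061 had no stable sign: it was above 0 with TMM scaling, without the block and without either library numbered 2. The bicarbonate cotransporter Slc4a7 had 5747, 4368 and 5006 in FcCD70 libraries 1 to 3, against 4268, 5039, 4487 and 4406 in untreated libraries 1 to 4 (log2 fold change 0.13, 95% interval -0.20 to 0.45, and -0.024 without FcCD70 library 1 and 0.29 without FcCD70 library 2).

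The 20 metal carriers were evenly split, 10 above 0 and 10 below 0. Without FcCD70 library 2, 13 were above 0 and 7 below. Slc30a9, a zinc transporter, had 2307, 2266 and 2245 in FcCD70 libraries 1 to 3, against 2332, 2319, 2197 and 2133 in untreated libraries 1 to 4 (log2 fold change -0.0059, 95% interval -0.27 to 0.26, and -0.001 without FcCD70 library 1, 0.0079 without FcCD70 library 2 and -0.025 without FcCD70 library 3), with a narrow range over the 7 libraries. Slc39a10, which takes up zinc, had 629, 455 and 736 in FcCD70 libraries 1 to 3, against 772, 642, 717 and 610.1 in untreated libraries 1 to 4 (log2 fold change -0.25, 95% interval -0.60 to 0.10, and -0.13 without FcCD70 library 2 and -0.40 without FcCD70 library 3). Slc39a4, a zinc importer at a low level here, had 232, 159.5 and 139 in FcCD70 libraries 1 to 3, against 117, 199, 104 and 120.1 in untreated libraries 1 to 4 (log2 fold change 0.36, 95% interval -0.26 to 0.99, and 0.052 without FcCD70 library 1 and 0.70 without FcCD70 library 2). The iron importer Slc11a2 had 837, 771 and 1115 in FcCD70 libraries 1 to 3, against 755, 902, 1014 and 952 in untreated libraries 1 to 4 (log2 fold change 0.019, 95% interval -0.30 to 0.34, and -0.045 without FcCD70 library 1, 0.14 without FcCD70 library 2 and -0.039 without FcCD70 library 3), and its levels were higher in numbers 3 and 4. Slc40a1, the iron exporter ferroportin, was at 0 in all 7 libraries. With 3 reads as the limit that a count of 0 allows, this is up to 0.165 reads per 1000000 in the shallowest library, for counting error only.

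The mitochondrial Slc25 family was the largest, with 37 members, and held the highest levels. Fold changes were below 0 in 22 and above 0 in 15, with a median of -0.01. Without FcCD70 library 2, 19 were below 0 and 18 above. The sum over the family was 54671, 59659 and 57291 in FcCD70 libraries 1 to 3, against 55336, 54713, 58218 and 57498 in untreated libraries 1 to 4. Slc25a5 had 4635, 8174 and 6625 in FcCD70 libraries 1 to 3, against 6059, 5427, 7266 and 6936 in untreated libraries 1 to 4 (log2 fold change 0.024, 95% interval -0.38 to 0.43, and 0.23 without FcCD70 library 1, -0.26 without FcCD70 library 2 and 0.10 without FcCD70 library 3). Slc25a4 had 3664, 5432 and 3902 in FcCD70 libraries 1 to 3, against 4136, 3817, 4527 and 4154 in untreated libraries 1 to 4 (log2 fold change 0.04, 95% interval -0.32 to 0.40, and 0.15 without FcCD70 library 1, -0.19 without FcCD70 library 2 and 0.17 without FcCD70 library 3). Slc25a5 shares near-identical sequence with Gm5529 and Gm5560, so its reads may have been split. FcCD70 library 2 was the highest in Slc25a3, Slc25a5 and Slc25a4. Slc25a46, an outer membrane protein of mitochondria with a role in their fission, was higher with FcCD70 in 3 of 3 pairs, with 1958, 2286 and 1945 in FcCD70 libraries 1 to 3, against 1810.2, 1830.5, 1879 and 1954 in untreated libraries 1 to 4 (log2 fold change 0.16, 95% interval -0.12 to 0.44, and 0.081 without FcCD70 library 2).

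The 18 ER and Golgi members had fold changes above 0 in 11 and below 0 in 7, with a median of 0.0077. Without FcCD70 library 2, 8 were above 0 and 10 below. Slc35c1, whose upstream sequence is printed above, had the highest count and 558 per kilobase. Slc35a3, which carries UDP-N-acetylglucosamine, had 2030.0, 1883 and 1792 in FcCD70 libraries 1 to 3, against 1820.0, 1889, 1619.8 and 1662 in untreated libraries 1 to 4 (log2 fold change 0.099, 95% interval -0.17 to 0.37, and 0.15 without FcCD70 library 2). Slc37a3 had 988, 874 and 889 in FcCD70 libraries 1 to 3, against 1022, 1155, 1030.3 and 968 in untreated libraries 1 to 4 (log2 fold change -0.22, 95% interval -0.53 to 0.086, and -0.13 without FcCD70 library 2) and was lower with FcCD70 in 3 of 3 pairs. In 5 of these 18 members, Slc35a3 among them, every library numbered 3 and 4 was below every one numbered 1 and 2. This was so in 11.04% of all members and 11.6% of the genes with a mean of at least 50. In 1 of the 18, every library numbered 3 and 4 was above, against 11.5% of those genes. The class was looked at in this way after its values were seen.

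Of 8 carriers of vitamins and choline, 6 had a fold change below 0 and 2 above 0, and without FcCD70 library 2 these were 2 and 6. Slc44a2 had 12518, 11607 and 14347 in FcCD70 libraries 1 to 3, against 11994, 12681, 14476 and 13569 in untreated libraries 1 to 4 (log2 fold change -0.026, 95% interval -0.33 to 0.27, and -0.07 without FcCD70 library 1 and 0.024 without FcCD70 library 2). The vitamin C transporter Slc23a2 had 1164, 745 and 1221 in FcCD70 libraries 1 to 3, against 1164, 1119, 1132 and 1146 in untreated libraries 1 to 4 (log2 fold change -0.16, 95% interval -0.52 to 0.20, and 0.055 without FcCD70 library 2 and -0.29 without FcCD70 library 3), lowest in FcCD70 library 2. The folate transporter Slc19a1 had 348, 393 and 538 in FcCD70 libraries 1 to 3, against 417, 439, 525 and 451 in untreated libraries 1 to 4 (log2 fold change -0.13, 95% interval -0.48 to 0.23, and -0.062 without FcCD70 library 1 and -0.21 without FcCD70 library 3). In Slc44a2 and Slc19a1, all libraries numbered 3 and 4 were above those numbered 1 and 2. Slc48a1, which carries heme, had 2691, 2756 and 2492 in FcCD70 libraries 1 to 3, against 2886, 2783, 2445 and 2874 in untreated libraries 1 to 4 (log2 fold change -0.029, 95% interval -0.30 to 0.24, and 0.0068 without FcCD70 library 1 and -0.058 without FcCD70 library 3). Slc22a5, the carnitine transporter, had 501, 404 and 468 in FcCD70 libraries 1 to 3, against 566, 561, 564 and 444 in untreated libraries 1 to 4 (log2 fold change -0.30, 95% interval -0.65 to 0.041); it shares near-identical sequence with Slc22a21. The fatty acid transport protein Slc27a4 had 586, 584 and 519 in FcCD70 libraries 1 to 3, against 492, 641, 592 and 507 in untreated libraries 1 to 4 (log2 fold change -0.024, 95% interval -0.38 to 0.33, and -0.16 without FcCD70 library 1, 0.03 without FcCD70 library 2 and 0.06 without FcCD70 library 3). In 17 members the substrate is not settled, and 12 of them had a fold change below 0, against 8 without FcCD70 library 2. Of these, Slc16a6 had 755, 483 and 599.7 in FcCD70 libraries 1 to 3, against 731, 868, 716 and 694 in untreated libraries 1 to 4 (log2 fold change -0.35, 95% interval -0.76 to 0.061, and -0.55 without FcCD70 library 1 and -0.10 without FcCD70 library 2), with genes on both strands overlapping its exons.

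Genes that serve or regulate these carriers were listed too: the chaperones of lactate transporters, the glucose uptake inhibitors, ion transport kinases, and the nutrient-responsive factors. Of 26 with a row, 25 were tested, 14 had a fold change above 0 and 11 below 0, with a median of 0.063, and 0 passed in limma, with 0 at an unadjusted p under 0.05. Bsg, the chaperone of Slc16a1 and Slc16a3, had 2688, 4247 and 3020.3 in FcCD70 libraries 1 to 3, against 2942, 3084, 3229 and 3269 in untreated libraries 1 to 4, with FcCD70 library 2 the highest. Txnip, which restrains glucose uptake, had 15526, 15012 and 15643 in FcCD70 libraries 1 to 3, against 13609, 13424, 16766 and 15088 in untreated libraries 1 to 4 (log2 fold change 0.084, 95% interval -0.23 to 0.40). For the number, 2 of the 25 had an unadjusted p under 0.05, against 8.02% of all genes, and 0 passed. Myc, a factor that drives nutrient uptake in activated T cells, had 2394, 2466 and 2014 in the libraries numbered 3 and 4 (FcCD70 3, untreated 3, untreated 4), against 1249, 1549, 1438 and 1379 in those numbered 1 and 2 (FcCD70 1, FcCD70 2, untreated 1, untreated 2). Arrdc3, a relative of Txnip, had 605, 777 and 793 in numbers 3 and 4, against 1207, 1117, 1143 and 1155 in numbers 1 and 2. The libraries of the 2 sets of numbers did not overlap in either gene. The same was seen in others of the list: Hif1a, Emb and Sesn2 were lower in numbers 3 and 4 without overlap. Sgk1, Keap1, Nedd4l, Wnk1 and Mlxip were higher without overlap. Of the genes with a mean of at least 50, 11.6% were lower and 11.5% higher in this way.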

How the data were processed

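Per the labels' protocols, mRNA libraries were prepared with Illumina's stranded TruSeq kit. The submitters' processing notes name the build GRCm38.p4 and the tools TopHat2, HTSeq, SAMtools and DESeq2 without saying what each did. Which annotation release was used, and whether counting used strand, is not given in the sources used here. The deposited library columns are a signal, read here as each gene's read count divided by 1 size factor per library by the authors. Divided by the smallest value above 0 of their library, 100% of values were whole within 0.01. The recovered reads take that smallest value as 1 read. The deposited table also holds the authors' log2 fold change (coded untreated minus FcCD70), its score (the Wald statistic) and p-values, from DESeq2 per the file headers.

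The fit used trended limma, version 3.58.1, on log2(value + 1) for the 11083 genes with a mean of at least 10, with group and replicate number as terms, because the deposited table is named a paired analysis. It has 2 residual degrees of freedom, with untreated library 4 unpaired. The plan allowed for counts; since the values were a signal, limma was used, and edgeR (4.0.16) and DESeq2 (1.42.0) on recovered reads were alternatives. Exon lengths and gene positions come from GENCODE vM21 (GRCm38); 42 members overlap an exon on the other strand, 8 on the same strand, and 25 share near-identical sequence (at least 95% over 300 bases) with another gene. Classes of substrate, members and gene lists were chosen with earlier results of these data known. Genes named are the 3 of highest mean per class, the 5 of smallest p in each direction, the 10 of smallest p for the number, a fixed list of well-known carriers, and those nearest the limit; others were named after their values were seen. A gene of the fixed list is not reported here. The main fit was tested on simulated data that had 1 fixed spread for all genes and no deviating library. That outcome is not reported here, and it does not cover data with a library such as FcCD70 library 2.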

Additional observations from a re-analysis of the deposited data

Results flagged for a closer look

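Of the 63 named members, 3 had 1 untreated library far from the other 3 of that group. For Slc22a5 untreated library 4 was the lowest, at 443.9. For Slc38a1 untreated library 1 was the lowest, at 5121. For Slc39a4 untreated library 2 was the highest, at 198.8. Chance alone marks about 1 in 20 groups in this way. The FcCD70 group, with 3 libraries, was too small to be examined.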

How the results depend on the processing

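No member was called for FcCD70 under any of the 16 alternative settings. Over all genes, DESeq2 called 1 gene, and leaving out 1 library at a time gave between 0 and 20 (20 without FcCD70 library 2). The number test called 15 genes; it called 0 with edgeR, 0 with no filter on low values and 7 with TMM scaling, and between 29 and 4269 with 1 library left out. Members called by the number were between 0 and 52 when a library was left out. The cause was not tested. With a library numbered 1, 2 or 3 left out, that number rests on 1 library and cannot be told apart from it. The median fold change of the members moved by less than the SD of the 3 pair medians, 0.097, in each setting, but its sign turned, to 0.019, without either library numbered 2. That SD includes pair 2 and is larger than the size of the median itself (-0.032). A move below it therefore does not show that the median is stable. Leaving out a library leaves 1 residual degree of freedom, except for untreated library 4.

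Without the replicate block, limma called 0 genes. Deviations of same-numbered libraries had correlations of 0.30, 0.014 and 0.43 for numbers 1, 2 and 3, against -0.36 to 0.35 for the other pairs. FcCD70 libraries 1 and 3 correlated best with the untreated library of their own number, and FcCD70 library 2 did not. FcCD70 library 1 was close behind with untreated library 2 (0.26), and FcCD70 library 3 with untreated library 4 (0.35). Pairing by number and a split of numbers 1 and 2 from 3 and 4 cannot be told apart by this. FcCD70 library 2 had -0.037 to 0.026 with the untreated libraries, which does not show whether number 2 pairs its libraries. Of 25 genes followed, 18 kept their sign. Slc20a1 was at 0.062 without the block, 0.12 without the block and FcCD70 library 2, and 0.00086 with TMM scaling. Without the block and FcCD70 library 2, Slc16a1 was at -0.033, Slc38a1 at 0.069, Slc38a2 at 0.062, Slc3a2 at -0.024 and Slc9a7 at 0.15. With 1 library left out, the ranges were -0.079 to 0.22 for Slc16a1, -0.088 to 0.13 for Slc20a1, -0.074 to 0.038 for Slc2a1, -0.18 to 0.097 for Slc38a1, -0.19 to 0.11 for Slc38a2, -0.0072 to 0.10 for Slc3a2 and -0.75 to 0.15 for Slc9a7. Members of low mean had wide intervals, such as -0.94 to 0.86 for Slc52a3 (mean 54.0).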
